A study of Oryza sativa with 3 samples.

Results

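Chromosomes 8 and 9 of rice are examined here through the peaks of 5-hydroxymethylcytosine (5hmC) capture that lie on them. A peak was a member when the chromosome column of its list named chromosome 8 or chromosome 9. By that rule 1509 of the 10250 peaks in the 3 deposited lists were members, 916 on chromosome 8 and 593 on chromosome 9. The LYP9 list held 547 of them, the 93-11 list 604 and the PA64s list 358.

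The material was genomic DNA of young panicles, the developing flower heads, at a length of 3 to 4 mm, taken in 1 field from LYP9, 93-11 and PA64s. LYP9 is a commercial hybrid that has the male-sterile line PA64s as seed parent and the indica line 93-11 as pollen parent. All cultivars shared the same treatment as the labels' protocol gives it: a β-glucosyltransferase put an azide-bearing sugar on 5hmC, biotin was attached to it, and labelled fragments were pulled down with streptavidin. The labels also name a 5hmC antibody, whose use their protocol describes for dot blots; the libraries were taken here to come from the chemical capture, which the sample descriptions name. Each cultivar had 1 library, so no difference between cultivars or chromosomes has a replicate check, no p-value is given, and every interval covers counting error only.

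In mammals 5hmC is made from 5-methylcytosine by TET enzymes and marks enhancers and active genes. Plants have no known TET relatives, and the amounts reported in rice DNA are low. Chromosomes 8 and 9 carry matching blocks left by the genome duplication that preceded the grasses, which makes them a natural pair to set side by side. Chromosome 8 is known for a centromere that was among the first of any plant to be sequenced, and the tip of the short arm of chromosome 9 is known for the ribosomal RNA genes of the nucleolar organiser.

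The libraries held 10078296 tags for LYP9, 10007148 for 93-11 and 11948210 for PA64s, as the file headers state. A pileup is the number of extended tags over a peak's summit. The scaled pileup used here is that number for each 1000000 tags of its library. Since up to 2 tags were kept at a position, a pileup has an upper limit. Scaled, that limit is lowest in PA64s, whose library has the most tags. How far it bears on the tallest peaks was not tested. Deposited pileups were taken as whole tags that had not been scaled before, since the headers state no scaling. A fold enrichment is the pileup over the local background, and −log10 p is the caller's score, higher for stronger peaks. No control library was used in peak calling, so a place that draws tags for any reason is listed like one rich in 5hmC; how far that bears on the results below was not tested. No genome of the files' build was at hand, so no sequence is shown and no gene is named. Positions count from 1 as the files give them.

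Chromosome 8 carried peaks more densely than chromosome 9 in each list. The densities were 12 peaks per Mb (95% Poisson interval 10.8 to 13.3) on chromosome 8 and 8.98 (7.80 to 10.3) on chromosome 9 in LYP9. In 93-11 they were 13 (11.7 to 14.4) on chromosome 8 and 10.2 (8.98 to 11.6) on chromosome 9, and in PA64s 7.25 (6.29 to 8.31) and 6.63 (5.61 to 7.77). The ratio of chromosome 8 to chromosome 9 was 1.34 (1.12 to 1.60) in LYP9, 1.27 (1.07 to 1.50) in 93-11 and 1.09 (0.883 to 1.36) in PA64s, and of these intervals that of PA64s took in equality. The PA64s value depended on 1 stretch of chromosome 9, described below, where PA64s had 27 peaks. Without those 200 kb the ratio was 1.34 in LYP9 (1.13 to 1.61), 1.28 in 93-11 (1.09 to 1.52) and 1.32 in PA64s (1.05 to 1.66). The stretch was known beforehand and is crowded in PA64s, so a higher PA64s ratio was built into this step. No interval then took in equality, which for PA64s is therefore no check. The lists share many peaks and are not independent witnesses of this order. Peaks also gather in places, so Poisson intervals are too narrow for them.

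Among the 12 nuclear chromosomes, chromosome 8 ranked 3rd in density in LYP9, 4th in 93-11 and 5th in PA64s, and chromosome 9 ranked 9th, 9th and 7th. The other 10 nuclear chromosomes together had 9.20 peaks per Mb in LYP9, 10.5 in 93-11 and 6.37 in PA64s. The pair thus lay on either side of that level in LYP9 and 93-11, and both members lay above it in PA64s. The interval of chromosome 9 took in the level in each list, and that of chromosome 8 did so in PA64s. Outside the 200 kb stretch, chromosome 9 had 5.50 peaks per Mb in PA64s, below the level. As the stretch is crowded in PA64s, a lower value was built into that step. Neither was an extreme: the highest density was that of chromosome 10 in each list.

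**Figure D1:**
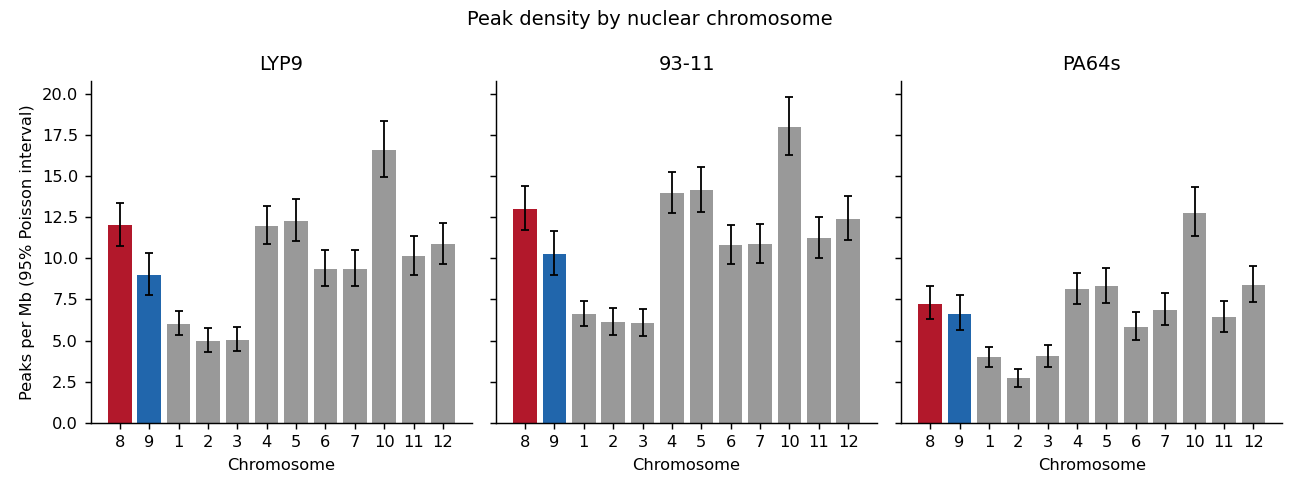
Peaks per Mb on each nuclear chromosome, with chromosome 8 in red, chromosome 9 in blue and the other 10 in grey; error bars are 95% Poisson intervals, 1 library per panel. Chromosome 8 stands at 12, 13 and 7.25 peaks per Mb in LYP9, 93-11 and PA64s, and chromosome 9 at 8.98, 10.2 and 6.63.

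The number of peaks differed between cultivars on both chromosomes in the order seen elsewhere. LYP9 had 0.924 times as many peaks as 93-11 on chromosome 8 (95% interval 0.795 to 1.07), 0.877 times as many on chromosome 9 (0.723 to 1.06) and 0.874 times as many on the other 10. Against PA64s the LYP9 number was 1.66 times as large on chromosome 8 (1.39 to 1.98), 1.36 times on chromosome 9 (1.09 to 1.68) and 1.44 times on the other 10. The ratio of 93-11 to PA64s was 1.79 (1.51 to 2.13) on chromosome 8 and 1.55 (1.26 to 1.91) on chromosome 9, beside 1.65 on the other 10. These intervals overlap between the chromosomes, so the counts do not separate chromosome 8 from chromosome 9 in how the cultivars compare.

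Peaks of chromosome 8 were most crowded in 1 block. The windows of 1 Mb from 6 to 7 Mb and from 7 to 8 Mb held 62 and 67 peaks in LYP9, 76 and 67 in 93-11, and 49 and 39 in PA64s. Summed over the lists they ranked 5th and 6th of the 377 nuclear windows. This block makes up 7.04% of the chromosome by length. It held 129 of the 341 chromosome 8 peaks in LYP9 (37.8%), 143 of 369 in 93-11 (38.8%) and 88 of 206 in PA64s (42.7%). Density inside the block was 64.5 peaks per Mb in LYP9, 71.5 in 93-11 and 44 in PA64s, against 8.02, 8.55 and 4.47 on the rest of chromosome 8.

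With the block left out and nothing taken from chromosome 9, the ratio of chromosome 8 to chromosome 9 was 0.893 in LYP9 (95% interval 0.734 to 1.09), 0.835 in 93-11 (0.692 to 1.01) and 0.674 in PA64s (0.525 to 0.863). The block was chosen after its counts were seen and because they were high, so a lower ratio was built into this step, and the intervals of LYP9 and 93-11 took in equality. Leaving out the densest window of 1 Mb on each chromosome gave 1.19 in LYP9 (0.988 to 1.44), 1.15 in 93-11 (0.958 to 1.38) and 0.959 in PA64s (0.755 to 1.22), and each interval then took in equality.

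Within the block the peaks crowded further. The adjoining windows of 100 kb from 6.9 to 7.0 Mb and from 7.0 to 7.1 Mb held 25 and 25 peaks in LYP9, 29 and 26 in 93-11, and 16 and 14 in PA64s, and ranked 7th and 10th of 3717 nuclear windows by their sum. The next, from 7.1 to 7.2 Mb, held 13 in LYP9, 12 in 93-11 and 5 in PA64s. Peaks of the whole block were a little taller than is usual on the chromosome, with a median scaled pileup of 2.58 in LYP9, 2.7 in 93-11 and 2.18 in PA64s, against 2.28, 2.40 and 2.09 over all of chromosome 8. Their median background, the pileup divided by the deposited fold enrichment, was 2.29 tags in LYP9, 2.49 in 93-11 and 2.52 in PA64s, against 2.09, 2.25 and 2.48 over the chromosome. The block stood out in the number of its peaks far more than in their height.

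On chromosome 9 no single block stood out in all lists. Its fullest window of 1 Mb by the summed count was the first of the chromosome, with 19 peaks in LYP9, 31 in 93-11 and 21 in PA64s. The window from 2 to 3 Mb came next with 14 in LYP9, 16 in 93-11 and 34 in PA64s, and 2 windows tied for the third place. That from 4 to 5 Mb held 20 peaks in LYP9, 24 in 93-11 and 11 in PA64s, and that from 13 to 14 Mb held 20, 20 and 15. On chromosome 8 the third place went to the window from 14 to 15 Mb, with 28, 28 and 17 peaks. The fullest windows of 100 kb on chromosome 9 were that from 0.1 to 0.2 Mb, with 12 peaks in LYP9, 16 in 93-11 and 13 in PA64s, that from 14.2 to 14.3 Mb, with 11, 9 and 6, and that from 13.6 to 13.7 Mb, with 9, 8 and 8.

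A window was called dense when its count reached that of the window at the 10% rank of all nuclear windows of its list, which was 20 peaks in LYP9, 22 in 93-11 and 14 in PA64s. By this rule 10.1% of nuclear windows were dense in LYP9, 10.9% in 93-11 and 10.3% in PA64s. Chromosome 8 had 4 dense windows of 29 in LYP9, 5 in 93-11 and 4 in PA64s, against 2, 2 and 3 of 23 on chromosome 9. The shares were 13.8%, 17.2% and 13.8% on chromosome 8 and 8.70%, 8.70% and 13% on chromosome 9, and all 6 intervals took in the background. Over the nuclear chromosomes 28 of 377 windows (7.43%) were dense in all lists. On chromosome 8, 4 of 29 were (13.8%), those from 6, 7, 12 and 14 Mb onwards. On chromosome 9 none of 23 was, since each of its dense windows missed the count in at least 1 list. Some misses were narrow. The first window had 19 peaks in LYP9, where 20 were needed, and that from 13 to 14 Mb had 20 in 93-11, where 22 were needed.

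At the scale of 100 kb, windows with 5 or more peaks made up 4.84% of nuclear windows in LYP9, 5.52% in 93-11 and 3.23% in PA64s. Chromosome 8 had 22, 22 and 15 of them among 285 windows, or 7.72% in LYP9, 7.72% in 93-11 and 5.26% in PA64s. Chromosome 9 had 14, 14 and 10 among 230, or 6.09%, 6.09% and 4.35%. Chromosome 8 was above the background in LYP9, where its interval began at 4.90%; the intervals of the other 5 shares took it in. Windows of 100 kb with no peak numbered 173 in LYP9, 170 in 93-11 and 204 in PA64s among the 285 of chromosome 8. Among the 230 of chromosome 9 they numbered 147, 143 and 171. The other 10 chromosomes had 2093, 1924 and 2380 among 3202.

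**Figure D2:**
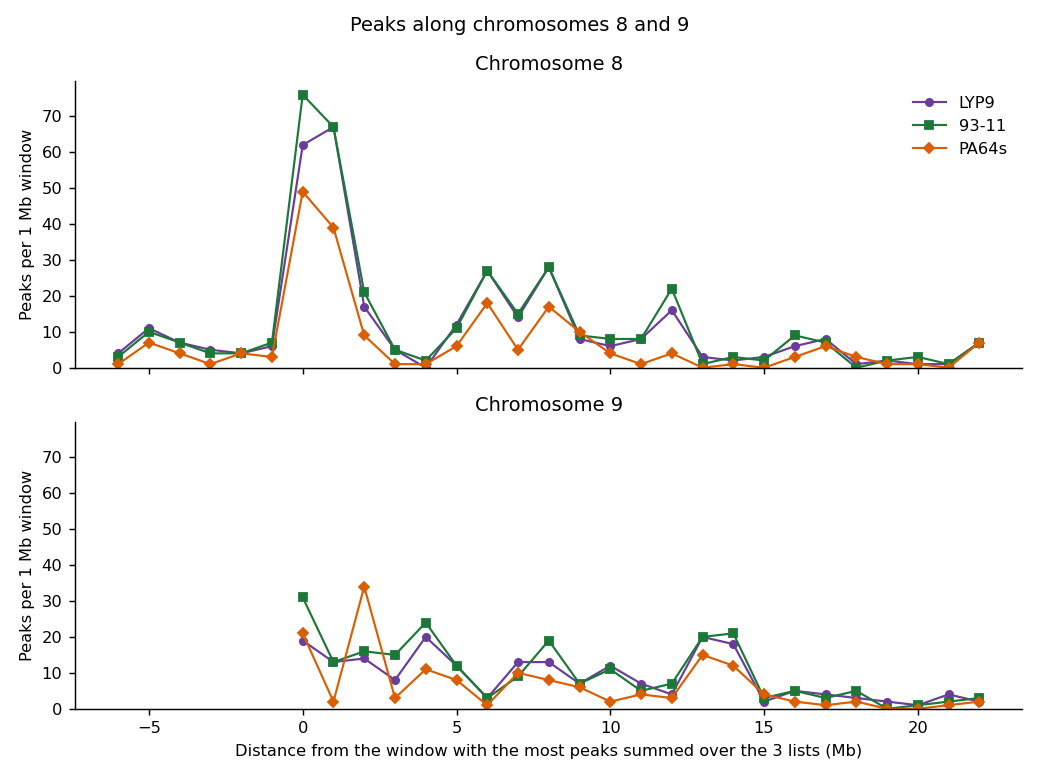
Peaks per 1 Mb window in LYP9, 93-11 and PA64s on chromosome 8 (top) and chromosome 9 (bottom), against the distance from the window with the most peaks summed over the lists. Chromosome 8 shows 1 tall block of 2 windows, with up to 67 peaks in LYP9, 76 in 93-11 and 49 in PA64s; on chromosome 9 the highest points are 20, 31 and 34, and the last is a window where PA64s stands alone.

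By the median distance, neighbouring peaks were closer together on chromosome 8 than on chromosome 9, but in PA64s not closer than elsewhere. The median distance from a summit to the nearest other summit of its list was 1.47 kb in LYP9, 1.63 kb in 93-11 and 2.96 kb in PA64s on chromosome 8. On chromosome 9 it was 4.46 kb, 3.45 kb and 4.64 kb, and on the other 10 chromosomes 2.00 kb, 2.10 kb and 2.15 kb. Peaks with a neighbour within 1 kb made up 43.4% of chromosome 8 peaks in LYP9 (95% interval 38.1 to 48.8), 41.7% in 93-11 (36.7 to 47.0) and 34.5% in PA64s (28 to 41.4). On chromosome 9 the shares were 35.0% (28.5 to 41.9), 35.3% (29.2 to 41.8) and 32.9% (25.5 to 41.0). All pairs of intervals overlapped. On the other 10 chromosomes the shares were 37.8% in LYP9, 38.1% in 93-11 and 38.6% in PA64s.

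Most peaks of both chromosomes lay before the midpoint of the coordinates. The stretch up to it held 73.6% of chromosome 8 peaks in LYP9, 72.6% in 93-11 and 75.2% in PA64s, and 65.5%, 68.1% and 69.7% of chromosome 9 peaks. On chromosome 8 that part includes the crowded block from 6 to 8 Mb. The block alone held 37.8% of the chromosome's peaks in LYP9, 38.8% in 93-11 and 42.7% in PA64s. The outermost 200 kb differed between the chromosomes. The first 200 kb of chromosome 9 held 18 peaks in LYP9, 26 in 93-11 and 16 in PA64s, and those of chromosome 8 a single peak in each list. At the far end the last 200 kb of chromosome 8 held 6 peaks in each list, and those of chromosome 9 none in LYP9, 1 in 93-11 and none in PA64s. Each chromosome was taken to end where the last peak in any of the lists ends, at 28426967 for chromosome 8 and 22939171 for chromosome 9.

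Peak length did not separate the chromosomes. Median lengths were 105 bp on chromosome 8 and 104.5 bp on chromosome 9 in LYP9, 107 and 105 bp in 93-11, and 104 and 105.5 bp in PA64s. The difference was 0.5 bp in LYP9 (95% interval -6.45 to 8.70), 2 bp in 93-11 (-10.1 to 9.07) and -1.5 bp in PA64s (-9.70 to 8.05). The shortest peaks, at 81 bp in LYP9 and PA64s and 83 bp in 93-11, equal the fragment length that MACS, the authors' peak caller, used to extend tags in each library. All 3 intervals took in 0.

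The longest peaks were another matter. Peaks of 500 bp or more numbered 1 in LYP9, 1 in 93-11 and 2 in PA64s on chromosome 8, and 4 in each list on chromosome 9. Their shares were 0.293%, 0.271% and 0.971% on chromosome 8 and 1.94%, 1.70% and 2.63% on chromosome 9. The other 10 together had 1.36%, 1.22% and 1.03%. Chromosome 9 was not the highest, since chromosome 6 had 2.77% in LYP9, 2.40% in 93-11 and 2.78% in PA64s. The longest on chromosome 8 reached 506 bp in LYP9, 598 bp in 93-11 and 561 bp in PA64s, against 954, 956 and 952 bp on chromosome 9. All 12 long peaks of chromosome 9 came from a single stretch, between 13.60 and 13.62 Mb.

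That stretch held 8 peaks in LYP9, 7 in 93-11 and 7 in PA64s. They were tall and wide, over a high background and with a low fold enrichment. Their median pileup was 93.5 tags in LYP9, 107 in 93-11 and 81 in PA64s, yet the median fold enrichment was 2.71, 2.75 and 2.76. The longest peak, from 13610614 to 13611567 in LYP9, had a pileup of 104 tags and a fold enrichment of 2.7. Its counterparts had 107 tags and 2.36 in 93-11 and 90 tags and 2.73 in PA64s. The background under these peaks ran from 15.9 to 38.5 tags in LYP9, 17.1 to 45.3 in 93-11 and 13.9 to 33.0 in PA64s. They were the only peaks of either chromosome with a background over 10 tags.

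Elsewhere the background was at MACS's floor for many peaks, the level set by all tags spread over the stated genome size. That floor was 2.09 tags in LYP9, 2.13 in 93-11 and 2.48 in PA64s. Within 1% of it stood 51.3% of chromosome 8 peaks in LYP9, 47.2% in 93-11 and 57.8% in PA64s, and 49.0%, 50.6% and 52.0% of chromosome 9 peaks. Fold enrichment at those peaks is the pileup in another unit. On the other 10 chromosomes the shares were 45.3% in LYP9, 44.3% in 93-11 and 38.8% in PA64s.

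The typical height of peaks was close on the 2 chromosomes, and the order of the medians depended on the list and on which peaks were kept. The median scaled pileup was 2.28 (95% interval 2.18 to 2.48) on chromosome 8 and 2.08 (1.98 to 2.28) on chromosome 9 in LYP9. In 93-11 it was 2.40 (2.30 to 2.50) on chromosome 8 and 2.20 (2.00 to 2.40) on chromosome 9, and in PA64s 2.09 (1.92 to 2.26) and 2.18 (2.01 to 2.51). The ratio of chromosome 8 to chromosome 9 was 1.10 (0.990 to 1.21) in LYP9, 1.09 (0.990 to 1.21) in 93-11 and 0.962 (0.815 to 1.07) in PA64s. Each interval took in equality. With stronger peaks only, those with a −log10 p of at least 15.35, the ratio was 0.861 in LYP9 (0.712 to 0.984), 0.899 in 93-11 (0.791 to 1.05) and 0.914 in PA64s (0.778 to 0.995), so the taller median was then that of chromosome 9 in all lists and the intervals of LYP9 and PA64s did not take in equality. Without the 200 kb stretch of chromosome 9 the ratio over all peaks was 1.04 in PA64s (0.902 to 1.17).

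Chromosome 9 had the heavier upper tail. The 90th percentile of scaled pileup was 4.37 on chromosome 8 and 6.35 on chromosome 9 in LYP9, 4.60 and 5.62 in 93-11, and 3.98 and 5.17 in PA64s. By this percentile chromosome 8 ranked 11th, 10th and 11th of 12 and chromosome 9 ranked 5th, 7th and 5th. The stretch from 13.60 to 13.62 Mb, with its high background, gave 8 of the 21 chromosome 9 peaks above that percentile in LYP9, 7 of 24 in 93-11 and 7 of 16 in PA64s. Without it, a step chosen after seeing the data, the 90th percentile of chromosome 9 was 5.06 in LYP9, 4.80 in 93-11 and 4.69 in PA64s, still above that of chromosome 8 in each list. Median fold enrichment ran differently, at 9.55 on chromosome 8 and 8.60 on chromosome 9 in LYP9, 9.39 and 8.92 in 93-11, and 8.87 and 8.62 in PA64s. The ratio of these medians was 1.11 (1.03 to 1.2) in LYP9, 1.05 (0.989 to 1.19) in 93-11 and 1.03 (0.909 to 1.14) in PA64s.

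**Figure D3:**
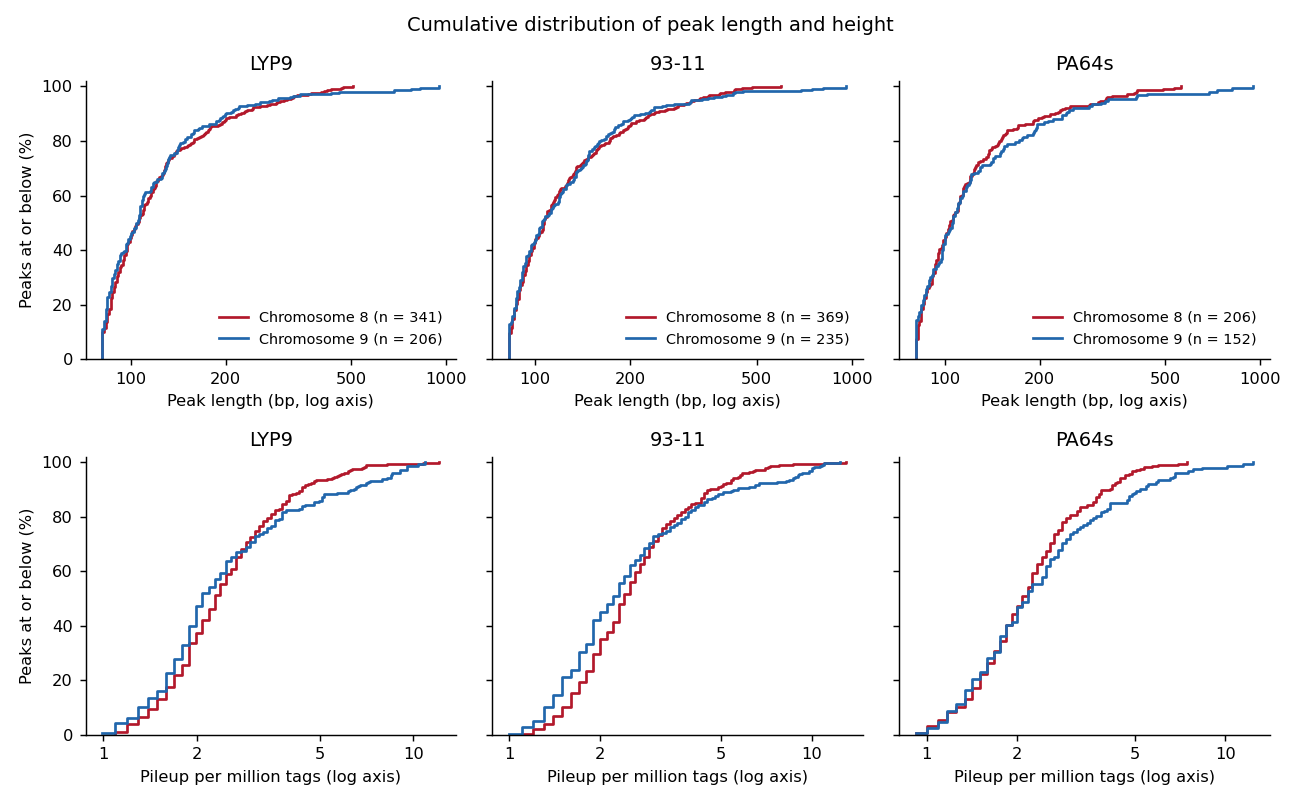
Cumulative share of peaks by length in bp (top) and by scaled pileup, in tags for each 1000000 (bottom), both on log axes, on chromosome 8 (red) and chromosome 9 (blue) in each list. The length curves run together up to the few long peaks of chromosome 9, whose longest reach 954, 956 and 952 bp in LYP9, 93-11 and PA64s; in height the curve of chromosome 9 lies to the right at the 90th percentile in each list.

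The strongest regions shared by all lists were ordered by their mean percentile of −log10 p within the lists. On chromosome 8 the first was the region from 6835953 to 6836223, inside the crowded block, with pileups of 122 tags in LYP9, 130 in 93-11 and 89 in PA64s. The scaled pileups were 12.1, 13 and 7.45, and the fold enrichments were 40.1, 38.7 and 35.8. Its summits fell on the same base in the 3 lists. The second lay at the very start of the chromosome, from 124 to 324, with 108, 110 and 83 tags.

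The third region of chromosome 8, from 1980101 to 1980265, had 83 tags in LYP9, 96 in 93-11 and 68 in PA64s. The fourth, from 28426811 to 28426967, stood at the last peak end of the chromosome with 69, 73 and 64 tags. The fifth, from 12228282 to 12228396, had 62, 59 and 52 tags. At the first 4 of these 5 the order was 93-11, LYP9, PA64s, in raw and in scaled pileup. At the fifth LYP9 was highest, with a scaled pileup of 6.15 against 5.90 in 93-11 and 4.35 in PA64s.

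Chromosome 9 had its 3 strongest shared regions close together, in the 40 kb from 4.70 to 4.74 Mb, and there PA64s stood first. The region from 4730582 to 4730732 had pileups of 85 tags in LYP9, 90 in 93-11 and 121 in PA64s. The region from 4722875 to 4723314 had 96, 100 and 148 tags, and that from 4707708 to 4707857 had 67, 84 and 137. Scaled, they reached 8.43, 9.53 and 6.65 in LYP9, 8.99, 9.99 and 8.39 in 93-11, and 10.1, 12.4 and 11.5 in PA64s. PA64s was thus the highest at each, also after scaling to the tags.

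A further peak between these, with its summit at 4723692 in LYP9 and 4723691 in 93-11, had pileups of 71 and 100 tags in those lists and no counterpart in PA64s. So even within these 40 kb the order was not uniform. The next regions of chromosome 9 followed the common order again. From 14291723 to 14292174 there were 86 tags in LYP9, 100 in 93-11 and 65 in PA64s, and from 61480 to 61616 there were 96, 98 and 66.

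The question of which peaks recur between lists was asked for each ordered pair of lists, with an overlap of 1 bp or more. Over all nuclear peaks, 71.9% of LYP9 peaks were found in 93-11 and 45.4% in PA64s, 63% of 93-11 peaks in LYP9 and 39% in PA64s, and 66.5% of PA64s peaks in LYP9 and 65.4% in 93-11. On chromosome 8, 256 of 341 LYP9 peaks were found in 93-11 (75.1%, exact 95% interval 70.1 to 79.6), against 134 of 206 on chromosome 9 (65.0%, 58.1 to 71.5). Of the 93-11 peaks, 251 of 369 were found in LYP9 on chromosome 8 (68.0%, 63.0 to 72.8), against 133 of 235 on chromosome 9 (56.6%, 50.0 to 63.0). Of the PA64s peaks, 154 of 206 were found in LYP9 on chromosome 8 (74.8%, 68.3 to 80.5), against 94 of 152 on chromosome 9 (61.8%, 53.6 to 69.6). Chromosome 8 lay above the nuclear share and chromosome 9 below it in each of these 3 pairs.

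The shares of LYP9 and of 93-11 peaks found in PA64s differed little between the chromosomes. They were 45.5% on chromosome 8 and 45.6% on chromosome 9 for LYP9 peaks, and 39.0% and 39.6% for 93-11 peaks. Of the PA64s peaks, 70.4% on chromosome 8 and 62.5% on chromosome 9 were found in 93-11. The differences of chromosome 8 from chromosome 9 were -0.18 percentage points (95% interval -9.05 to 8.65), -0.55 (-8.81 to 7.61) and 7.89 (-2.35 to 18.1), in that order. For the other pairs they were 10.0 points (1.86 to 18.3) for LYP9 peaks found in 93-11, 11.4 (3.27 to 19.5) for 93-11 peaks found in LYP9 and 12.9 (2.80 to 23.0) for PA64s peaks found in LYP9.

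The differences depended on the setting. With peaks of a −log10 p of at least 15.35 only, the difference was -4.37 points for LYP9 peaks found in 93-11 and 1.63 for 93-11 peaks found in LYP9, while for PA64s peaks found in 93-11 it was 17.6 (4.46 to 30.7). When an overlap of 50% of both peaks was asked for, LYP9 peaks found in 93-11 differed by 6.58 points (-1.93 to 15.2), and with lists cut to equal length by 5.14 (-3.87 to 14.6). Without the 200 kb stretch of chromosome 9 the difference was -0.44 points for PA64s peaks found in LYP9 and -4.81 for PA64s peaks found in 93-11. That stretch holds 26 peaks of PA64s alone, so a lower difference was built into this step. Without 6 to 8 Mb of chromosome 8 the differences were 4.29 points (-5.03 to 13.5) for LYP9 peaks found in 93-11, 7.56 (-1.67 to 16.7) for 93-11 peaks found in LYP9 and 11.0 (-0.81 to 22.4) for PA64s peaks found in LYP9, and these intervals took in 0.

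**Figure D4:**
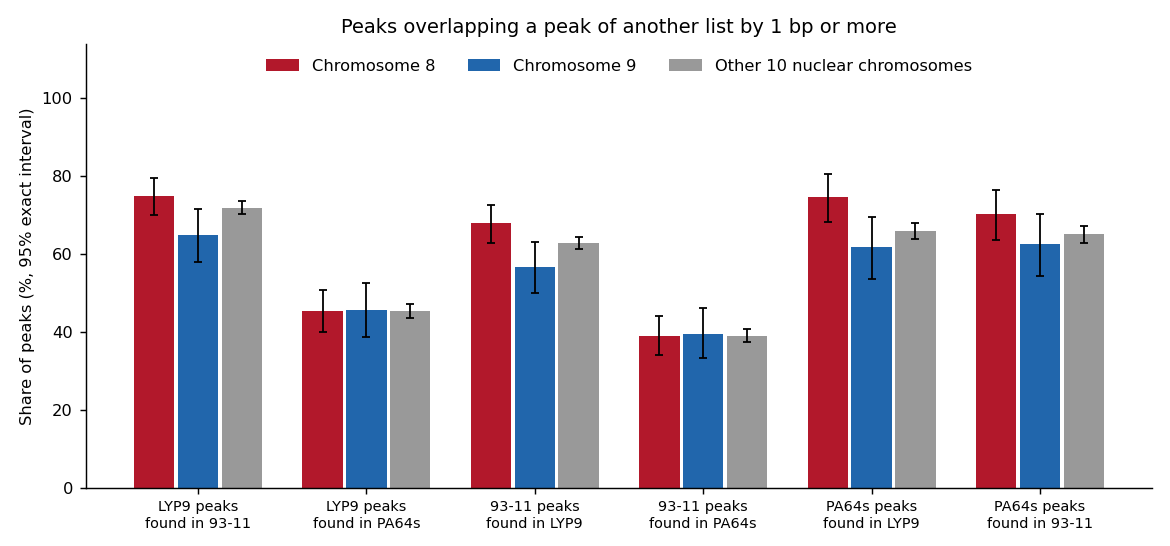
Share of the peaks of 1 list that overlap a peak of another by 1 bp or more, for the 6 ordered pairs of lists, on chromosome 8 (red), chromosome 9 (blue) and the other 10 nuclear chromosomes (grey), with exact 95% intervals. For LYP9 peaks found in 93-11, 93-11 peaks found in LYP9 and PA64s peaks found in LYP9, chromosome 8 stands at 75.1%, 68.0% and 74.8% and chromosome 9 at 65.0%, 56.6% and 61.8%.

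Merging the overlapping peaks of the lists gave 500 regions on chromosome 8 and 355 on chromosome 9. Regions present in all lists made up 25.3% over the nuclear chromosomes, 139 or 27.8% on chromosome 8 (95% interval 23.9 to 32.0) and 86 or 24.2% on chromosome 9 (19.9 to 29.0). Regions of LYP9 and 93-11 without PA64s numbered 112 on chromosome 8 (22.4%, 18.8 to 26.3) and 47 on chromosome 9 (13.2%, 9.89 to 17.2), with 19.1% over the nuclear chromosomes. Those of LYP9 and PA64s without 93-11 numbered 14 and 7. The pattern of the hybrid with its pollen parent was where the chromosomes differed most, and those intervals did not overlap. It was picked for that difference and no alternative setting was run for it, so the gap is no check. Counted by LYP9 peaks the intervals of this contrast overlapped, at 33.7% on chromosome 8 (28.7 to 39.0) and 23.8% on chromosome 9 (18.1 to 30.2).

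By the shares alone, peaks in the crowded block of chromosome 8 were less often in a single list than those around it. In the block 13.2% of LYP9 peaks were in that list alone (95% interval 7.87 to 20.3), against 25.5% (19.8 to 31.9) on the rest of chromosome 8. For 93-11 the shares were 23.1% (16.4 to 30.9) in the block and 35.0% (28.8 to 41.6) outside it, and for PA64s 18.2% (10.8 to 27.8) and 25.4% (17.9 to 34.3). Over the nuclear chromosomes 23.5% of LYP9 peaks were in that list alone. The direction was the same in the 3 lists, although the intervals overlapped in each. A peak found in several lists counts in each of them, so the lists are not independent witnesses. The block was chosen after its counts, summed over the lists, were seen to be high. Such a choice favours places that the lists share, so the lower shares are no check.

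Where a region was in all lists, its summits mostly lay close together. The median distance between the outermost of the 3 summits was 10 bp on chromosome 8 and 14 bp on chromosome 9, and 8 bp on the other 10. Summits lay within 20 bp at 101 of 139 regions on chromosome 8 (72.7%) and at 50 of 86 on chromosome 9 (58.1%). On the other 10 the share was 71.7%, so chromosome 8 was near it and chromosome 9 below it.

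The LYP9 list was then set against those of its parents. On chromosome 8, 141 of 341 LYP9 peaks were found in both parents (41.3%, exact 95% interval 36.1 to 46.8), against 85 of 206 on chromosome 9 (41.3%, 34.5 to 48.3), with 40.7% over the nuclear chromosomes. Peaks found in 93-11 without PA64s numbered 115 on chromosome 8 (33.7%, 28.7 to 39.0) and 49 on chromosome 9 (23.8%, 18.1 to 30.2), with 31.2% over the nuclear chromosomes. Those found in PA64s without 93-11 numbered 14 (4.11%) and 9 (4.37%), with 4.64%. Peaks found in neither parent numbered 71 on chromosome 8 (20.8%, 16.6 to 25.5) and 63 on chromosome 9 (30.6%, 24.4 to 37.4), with 23.5%. The hybrid's share of peaks in common with 93-11 alone was thus lower, and that without a parental counterpart higher, on chromosome 9, although in both classes the intervals of the chromosomes overlapped. Peaks with no counterpart were low ones, with a median scaled pileup of 1.59 on both chromosomes, against 3.08 on chromosome 8 and 3.57 on chromosome 9 for those found in both parents.

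Seen from the parents, peaks that both had were nearly all present in LYP9. Of the 93-11 peaks also in PA64s, 138 of 144 on chromosome 8 (95.8%) and 86 of 93 on chromosome 9 (92.5%) had a LYP9 peak. On the other 10 chromosomes the share was 91.5%. Among 93-11 peaks absent from PA64s, 44.5% were found in LYP9 over the nuclear chromosomes. The share was 113 of 225 on chromosome 8 (50.2%, 43.5 to 56.9) and 47 of 142 on chromosome 9 (33.1%, 25.4 to 41.5). For peaks of PA64s without one in 93-11 the nuclear share was 19.5%, with 15 of 61 on chromosome 8 (24.6%, 14.5 to 37.3) and 7 of 57 on chromosome 9 (12.3%, 5.08 to 23.7). Both kinds recurred in a larger share on chromosome 8, and the intervals of the chromosomes were apart for 93-11 peaks and overlapped for PA64s peaks. For 93-11 they met when an overlap of 50% was asked for, at 46.5% on chromosome 8 (40.1 to 53.0) and 32.5% on chromosome 9 (25.1 to 40.5), and also without 6 to 8 Mb of chromosome 8, at 47.3% (39.1 to 55.6) and 33.1%.

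Among 93-11 peaks the stronger ones recurred in a larger share. Stronger 93-11 peaks absent from PA64s, with a −log10 p of 20 or more, were mostly found in LYP9. They were found at 39 of 43 on chromosome 8 (90.7%, 77.9 to 97.4) and 16 of 18 on chromosome 9 (88.9%, 65.3 to 98.6). On the other 10 chromosomes it was 275 of 307 (89.6%), so both chromosomes were near that share. With lists cut to equal length the shares for 93-11 were 60.3% on chromosome 8 (51.4 to 68.7) and 52.5% on chromosome 9 (39.1 to 65.7), whose intervals overlapped, and with a −log10 p of at least 15.35 the share on chromosome 9 was 46.4%. Among the stronger PA64s peaks absent from 93-11, 4 of 8 on chromosome 8 were found in LYP9 (50%, 15.7 to 84.3). The other 10 chromosomes had 22 of 64 (34.4%, 22.9 to 47.3). On chromosome 9 it was 0 of 17, with an exact 95% upper bound of 19.5%. The limit that a count of 0 allows, 3 counts in 17, is 17.6%. Both bounds take the peaks as independent, which these neighbouring peaks are not.

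All 17 of those came from 1 stretch of 200 kb, from 2.7 to 2.9 Mb of chromosome 9, known from earlier results of these data. The stretch is crowded with peaks of PA64s alone, so their absence from LYP9 was built into that count and is no check. There PA64s had 27 peaks, 26 of them in no other list, while LYP9 had 3 and 93-11 had 5. The PA64s peaks had pileups from 16 to 59 tags with a median of 31. The tallest was that from 2807983 to 2808217, with 59 tags, 15.8-fold enrichment and a score of 49.2, and the next by score, from 2826946 to 2827352, had 49 tags and a fold enrichment of 19.8. The summits nearest to them in another list were 9363 and 9716 bp away.

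LYP9 and 93-11 shared peaks of their own in the same stretch. Their peaks with summits at 2773244, 2817428 and 2851058 in LYP9 had 25, 23 and 52 tags, and the matching 93-11 peaks had 25, 30 and 65 tags. None of these was listed in PA64s. The single PA64s peak with a counterpart was that from 2715244 to 2715370, with 20 tags, which overlapped a 93-11 peak of 17 tags and no LYP9 peak. In this stretch, then, each LYP9 peak had a counterpart in the pollen parent and none in the seed parent. With this stretch left out, LYP9 had a counterpart for 7 of 31 such PA64s peaks of chromosome 9 (22.6%, 9.59 to 41.1), beside 24.6% on chromosome 8.

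Outside that stretch the strongest peaks in 1 list only were moderate. On chromosome 8 the first in LYP9, from 7201087 to 7201187, had 27 tags, and the second, from 7526485 to 7526574, had 25. In 93-11 the first, from 1175791 to 1175881, had 30 tags, and the second, from 16007379 to 16007484, had 31. In PA64s the first, from 28425445 to 28425537, had 43 tags, and the second, from 6994398 to 6994524, had 36. The first LYP9 and PA64s peaks had a summit of another list within 500 bp, at 346 and 471 bp, so they sit beside peaks of other lists.

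On chromosome 9 the first in LYP9, from 7414557 to 7414658, had 25 tags, and the second, from 13513299 to 13513427, had 23. In 93-11 the first, from 814978 to 815081, had 28 tags, and the second, from 12238414 to 12238509, had 26. The nearest summits of other lists were 3832 and 7452 bp away for the LYP9 peaks and 257260 and 134688 bp away for the 93-11 peaks. For PA64s both places on chromosome 9 went to peaks of the 200 kb stretch.

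At regions present in all lists, the height of LYP9 peaks was compared with each parent by scaled pileup. LYP9 was slightly below 93-11, with a median log2 ratio of -0.08 on chromosome 8 (95% interval -0.12 to -0.01) and -0.09 on chromosome 9 (-0.12 to -0.04), beside -0.08 on the other 10. It was above PA64s, with a median log2 ratio of 0.41 on chromosome 8 (0.32 to 0.46) and 0.45 on chromosome 9 (0.35 to 0.53), beside 0.40 on the other 10. These medians correspond to 0.943 and 0.939 times 93-11 and to 1.33 and 1.37 times PA64s. Only regions that passed the peak caller in all lists enter, and the comparison of LYP9 with each parent uses the same LYP9 library.

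Over the nuclear chromosomes, LYP9 was at least 1.5-fold higher than PA64s at 29.4% of such regions and at least 1.5-fold lower at 1.13%. On chromosome 8 it was higher at 35 of 139 (25.2%) and lower at 1, and on chromosome 9 higher at 28 of 86 (32.6%) and lower at 2. Against 93-11 the nuclear shares were 0.709% higher and 2.06% lower. On chromosome 8, 0 regions were higher and 4 lower, and on chromosome 9 there were 0 in both directions. The members' shares are near the background throughout.

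The few regions where LYP9 was lower were named after their values were seen. Against PA64s there were 3. The region from 9577240 to 9577398 of chromosome 8 had a scaled pileup of 1.59 in LYP9, 3.10 in 93-11 and 2.43 in PA64s, and was at least 1.5-fold lower in LYP9 than in either parent. On chromosome 9 they were the region from 4707708 to 4707857 given above and that from 22733354 to 22733454, with 2.68 in LYP9, 3.00 in 93-11 and 4.85 in PA64s. In all, the LYP9 value lay between those of the parents at 77 of 139 regions on chromosome 8 (55.4%) and 55 of 86 on chromosome 9 (64.0%). Over the nuclear chromosomes it did so at 58.1%. It was above both parents at 44 regions (31.7%) and 20 (23.3%), beside a nuclear share of 31.0%. It was below both at 18 (12.9%) and 11 (12.8%), beside 10.9%.

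**Figure D5:**
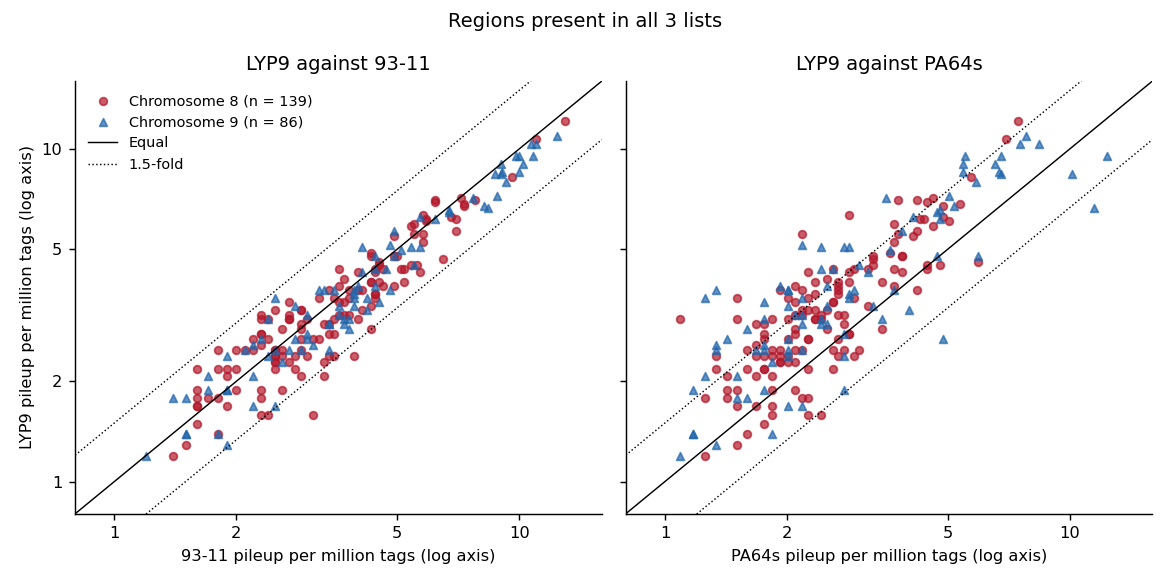
Scaled pileup in LYP9 against 93-11 (left) and PA64s (right) at the regions present in all lists, 139 on chromosome 8 (red circles) and 86 on chromosome 9 (blue triangles), on log axes. The points follow the line of equality against 93-11, with medians of 0.943 and 0.939, and lie above it against PA64s, with medians of 1.33 and 1.37; the 3 blue points farthest to the right, below the line of equality, are the neighbouring regions of chromosome 9 where PA64s was highest.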

How the data were processed

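Genomic DNA of panicles of LYP9, 93-11 and PA64s was captured through chemical labelling of 5hmC, 1 library each. The submitters' processing notes name BWA 0.5.8. Per the file headers, MACS 2.0.9 called peaks in each library without a control, with a q-value cutoff of 0.01, up to 2 tags kept at a position, a genome size of 390 Mb and a background taken over 10000 bp. No build is given in the sources used here. The deposited values are the pileup signal at each summit, the fold ratio over background, and −log10 p and −log10 q, as the authors' caller wrote them.

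Members were taken by the chromosome column. They, the lists and some stretches were chosen with earlier results of these data known. Chromosomes end where the last peak of the lists ends. Pileups were scaled to the tag number in the header. Windows were assigned by summit. Intervals are 95%: Poisson for densities, conditional binomial for ratios of counts, Clopper-Pearson for shares, order statistics for medians, and, for differences and ratios of medians, bounds combined from those of each side. On each chromosome the text names the 5 shared regions whose −log10 p had the highest percentile, averaged over lists, the 2 strongest peaks of each list alone, and the 3 fullest windows of each size. Other named regions were chosen after their values were seen. No test was run, since there was 1 library per cultivar. Alternatives changed the score limit, the overlap rule, list length, merging and windows. Calculations used Python 3.11.15, numpy 2.4.6, pandas 2.3.3, scipy 1.17.1 and matplotlib 3.10.9, and routines were tested on simulated data.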

Additional observations from a re-analysis of the deposited data

Results flagged for a closer look

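With 1 library per cultivar, 3 contrasts of chromosome 8 with chromosome 9 pointed one way in LYP9 and 93-11 and the other way in PA64s; the difference between cultivars was not tested. The difference in median length was 0.5 bp in LYP9, 2 bp in 93-11 and -1.5 bp in PA64s. The ratio of median scaled pileup was 1.10 in LYP9, 1.09 in 93-11 and 0.962 in PA64s. The ratio of base pairs covered by peaks per Mb was 1.30 in LYP9, 1.23 in 93-11 and 0.985 in PA64s. For length and pileup every interval took in no difference. The opposite direction of pileup in PA64s depended on the setting. Without the 200 kb stretch of chromosome 9, which is crowded in PA64s, the PA64s ratio was 1.04. With a −log10 p of at least 15.35 the ratio was below 1 in each list, at 0.861 in LYP9, 0.899 in 93-11 and 0.914 in PA64s. Without 6 to 8 Mb of chromosome 8 it was 1 in LYP9, 1.05 in 93-11 and 0.904 in PA64s. There PA64s still pointed the other way from 93-11.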

How the results depend on the processing

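Of 121 comparisons of a result with an alternative, 106 stayed within the interval of the reported value. With −log10 p at or above 15.35, the density ratio of chromosome 8 to chromosome 9 in LYP9 was 1.64, the length difference -16 bp, the pileup ratio 0.861 in LYP9 and 0.899 in 93-11, the difference in sharing -4.37 points for LYP9 peaks found in 93-11 and 1.63 for 93-11 peaks found in LYP9, and recurrence of 93-11 peaks on chromosome 9 46.4%. With lists cut to 2545 peaks, sharing of 93-11 peaks with LYP9 differed by 2.74 points and recurrence of 93-11 peaks was 60.3% on chromosome 8 and 52.5% on chromosome 9. Leaving out a stretch of either chromosome was added after seeing the data. Without the 200 kb stretch of chromosome 9, sharing of PA64s peaks differed by -0.44 points with LYP9 and -4.81 with 93-11. The PA64s density ratio was then 1.32 (1.05 to 1.66), whose interval no longer took in equality, and the PA64s pileup ratio was 1.04. Since the stretch is crowded with peaks of PA64s alone, the PA64s shifts in sharing and density were built into this step. Without 6 to 8 Mb of chromosome 8, the density ratio was 0.893 in LYP9, 0.835 in 93-11 and 0.674 in PA64s. The overlap rules of 50% or 500 bp, merging of near peaks, 500 kb windows and leaving out the densest windows moved no value beyond the interval of the reported one, but some intervals changed sides: with 50% overlap the difference for LYP9 peaks found in 93-11 took in 0 (6.58 points, -1.93 to 15.2) and the recurrence intervals of 93-11 peaks met, and without the densest windows every density ratio took in equality. With the score limit, the difference for PA64s peaks found in 93-11 was 17.6 points (4.46 to 30.7), which left 0 out. Why values moved was not tested beyond what was left out. No paired analysis was possible because each cultivar had 1 library. The number of tags and the missing control limit what low peaks show.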
